A study of Danio rerio with 6 samples.

Results

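Horizontal cells are inhibitory interneurons of the outer retina that receive glutamate from photoreceptors and feed back onto them. They are joined to each other by gap junctions built of connexins, and in zebrafish some of these connexins also form hemichannels on the dendrites inside the cone terminal. In the mouse, the transcription factor Onecut1 is needed to form these cells and Lhx1 to place them in their layer. In the retina of mouse and chick, Onecut1 together with Otx2 also acts on an enhancer of Thrb in progenitors that give rise to cones and horizontal cells.

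A list of 10 horizontal cell marker genes was read in cells sorted by a thrb reporter. By exact symbol 9 of the 10 were found among the 14781 genes of the deposited table: the transcription factors onecut1, onecutl, lhx1a and isl1, the connexins cx52.9, cx55.5 and cx52.6, the GTPase rem1 and the septin sept4a. The remaining one, onecut2, was not analysed here. In current RefSeq naming cx52.9 is gja9b, cx55.5 is gja9a, cx52.6 is gja10b, isl1 is isl1a and sept4a is septin4a. An older name of onecutl in that table is onecut1, but the deposited table lists onecut1 and onecutl as separate genes.

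RNA was sequenced from cells of zebrafish (Danio rerio) larval eyes at 5 days post-fertilization, sorted for red fluorescence from the thrb:tdTomato transgene, in which regulatory sequence of the thyroid hormone receptor gene thrb drives the reporter. The WT group came from crosses of WT with WT;thrb:tdTomato+/- fish. The samd7-/- group came from crosses in which both parents were homozygous for the stl888 allele of samd7 and one carried the transgene. Each group had 3 libraries, each from 1 clutch of 20 to 25 larvae, so that genotype and parental line cannot be told apart, and a subset of each clutch was genotyped. The reporter marks red cones, and any other cell with thrb activity at the time of the sort or shortly before could be among the sorted cells. The purity of the sort was not tested, so RNA of cells without such activity could be present too. Levels are the authors' normalized counts, reads per gene divided by a size factor of the library, and are not divided by transcript length. They are therefore no measure of the relative amounts of different genes. Sums over lists, shares of sums and ranks by mean level use the counts as they stand, so longer transcripts weigh more in them.

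Reads per library ranged from 13435570 to 20369266, and the libraries of a group differed by more than counting noise. The targeted gene samd7, which encodes a photoreceptor protein linked to Polycomb repression, was higher in the samd7-/- libraries, with 7683 ± 896 normalized counts in WT and 24329 ± 543 in samd7-/- (SD, n = 3). Since nothing in the labels tells what the allele does to its own transcript, the genotype is not checked by that level, and the second group is called the stl888 libraries after the allele of its parents, and samd7-/- in the plots. WT library 2 and stl888 library 3 stood apart from the others of their group on the second principal component (-75.5 and -75.0), and values without them are given. Genes were compared with limma on log2(normalized count + 1), and a gene was called changed at an adjusted p under 0.05 over all 9886 genes tested.

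All 9 markers were detected in every library of both genotypes, the lowest value being 52 reads of cx55.5 in WT library 3. In the stl888 libraries 4 of the 9 rose, onecut1, rem1, cx52.9 and isl1, 1 fell, sept4a, and 4 missed the threshold. Among all genes tested 1.26% were called higher and 3.90% lower, 5.17% together. The median log2 difference was 0.75 over the 9 markers and 0.05 over all genes tested, and 8 of the 9 differences were positive. The genotypes did not overlap for 7 of the 9, with 6 higher and 1 lower in the stl888 libraries, against 12.1% higher and 12.4% lower among all genes tested, 24.5% together. These are sorted bulk samples, in which more horizontal cells in the sort and more RNA of these genes per cell cannot be told apart. Nor can either be told from less cone RNA in the sort, or from more of other cells that share these genes.

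**Figure D1:**
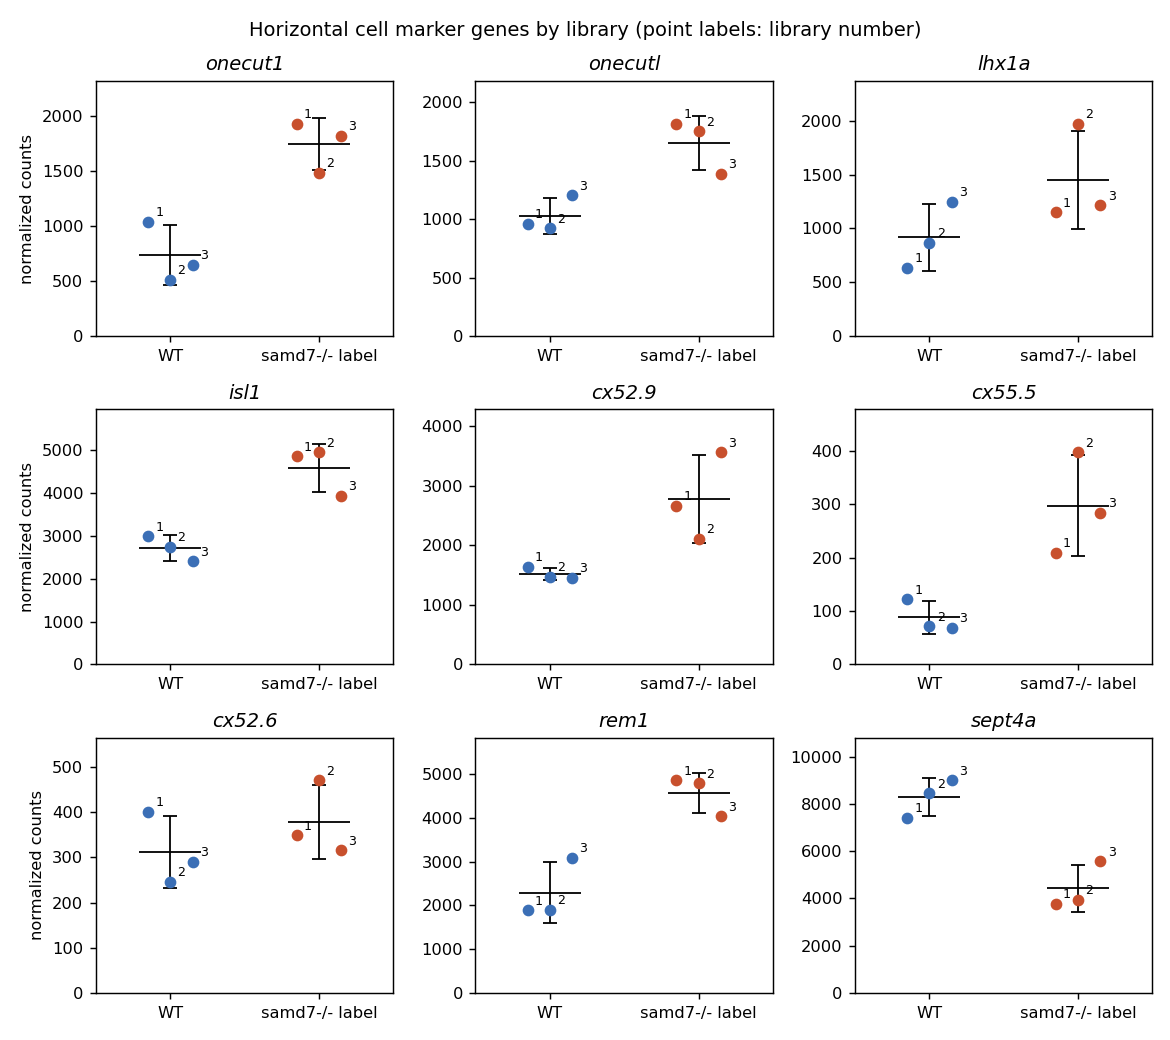
Normalized counts (vertical axes, from 0) of the 9 horizontal cell markers in each of 3 WT (blue) and 3 stl888 (red) libraries, with the library number beside each point and black bars for the mean ± SD. The groups are separate for all but lhx1a and cx52.6, and sept4a is the one gene with the WT libraries on top.

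Among the transcription factors, onecut1, a cut-homeodomain factor, rose the most. It had 1036, 510.0 and 648 normalized counts in WT libraries 1 to 3, and 1928, 1481 and 1818 in stl888 libraries 1 to 3. Every stl888 library lay above every WT library, and WT library 1 was the nearest to them. The mean level was 2.38-fold that of WT, with a log2 change of 1.31 (SE 0.28, adjusted p = 0.0155 with limma). Its relative onecutl had 961, 919 and 1206 in WT and 1817, 1750 and 1389.8 in the stl888 libraries. These also did not overlap, but the log2 difference of 0.68 did not pass over all genes tested (SE 0.23, 95% interval 0.19 to 1.18, adjusted p = 0.117). The call of onecut1 was lost without WT library 2 (adjusted p = 0.0760), WT library 3 (0.0521), stl888 library 1 (0.0749), or WT library 2 and stl888 library 3 together (0.122).

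The LIM-homeodomain factor isl1 rose as well. This gene is known from horizontal cells, and also from bipolar, amacrine and ganglion cells, so it marks no single retinal type. Its levels were 2992, 2743 and 2408 in WT and 4856, 4951 and 3936 in the stl888 libraries. The spread within each genotype was small beside the step between them, with a coefficient of variation of 10.8% in WT and 12.2% in the stl888 libraries. The log2 change was 0.75 (SE 0.19, adjusted p = 0.0331). The call was lost with any 1 library left out except stl888 library 3, where the adjusted p was 0.0136. The adjusted p was 0.0621, 0.112 and 0.118 without WT libraries 1 to 3, and 0.130 and 0.0992 without stl888 libraries 1 and 2. Without WT library 2 and stl888 library 3 together it was 0.0561.

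The second LIM-homeodomain factor, lhx1a, did not pass the test. It had 634, 866 and 1250.0 normalized counts in WT and 1153, 1976 and 1218 in the stl888 libraries. WT library 3 lay above stl888 libraries 1 and 3, so the genotypes overlapped, and stl888 library 2 stood above the rest. The log2 difference was 0.67 (SE 0.30, 95% interval 0.03 to 1.32, adjusted p = 0.239). It moved to 0.43 without WT library 1 or without stl888 library 2, and to 0.92 without WT library 3.

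Among the 3 connexins, 1 passed the test. For cx52.9 the WT libraries lay close together, at 1641, 1477 and 1458 normalized counts, and the stl888 libraries were spread, at 2664, 2115 and 3569.5. All 3 stl888 values were above all 3 WT values, and the log2 change was 0.84 (SE 0.22, adjusted p = 0.0465). That call was near the threshold. It was lost without stl888 library 3 (log2 difference 0.64, adjusted p = 0.113), without WT libraries 1, 2 or 3 (0.0946, 0.146 and 0.120), without stl888 library 1 (0.122), and with no filter on low values (0.0700). It was also lost without WT library 2 and stl888 library 3 together (adjusted p = 0.239).

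The hemichannel protein gene cx55.5, which acts in the feedback from horizontal cells to cones in zebrafish, had the largest difference of the 9 but few reads. Its levels were 123, 72.2 and 69.2 in WT and 209.7, 398 and 284 in the stl888 libraries, from 52 to 102 reads in WT and 254 to 533 in the stl888 group. The genotypes did not overlap, and the mean level was 3.38-fold that of WT. The log2 difference of 1.75 did not pass limma's threshold (SE 0.54, 95% interval 0.58 to 2.91, adjusted p = 0.0868), nor that of edgeR on the recovered reads (adjusted p = 0.0930). It passed with DESeq2 (adjusted p = 0.0258) and with library totals as the scale (0.0496).

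For cx52.6 the levels were 402, 247 and 290.2 in WT and 349, 471 and 316 in the stl888 libraries. WT library 1 was higher than stl888 libraries 1 and 3, and the log2 difference was 0.28 (SE 0.38, adjusted p = 0.753). The 95% interval ran from -0.54 to 1.11, and so takes in the difference seen for cx52.9. The difference in response between cx52.9, cx55.5 and cx52.6 was not itself tested.

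The gene rem1 encodes a small GTPase of the RGK family, proteins known to lower the current through voltage-gated calcium channels, and horizin is among its older names in RefSeq. It had 1885, 1905 and 3094 normalized counts in WT and 4857, 4799 and 4046 in the stl888 libraries. WT library 3 was the highest of its group and stl888 library 3 the lowest of its own, and the genotypes remained separate. The mean rose 1.99-fold, with a log2 change of 1.03 (SE 0.22, adjusted p = 0.0145). The call was lost without WT library 1 (adjusted p = 0.0735), WT library 2 (0.0827) or stl888 library 1 (0.0697), and without WT library 2 and stl888 library 3 together (0.0712).

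The septin gene sept4a, which encodes a filament-forming GTP-binding protein, went against the other markers. Its levels were 7411, 8448 and 8989 in WT and 3768, 3941 and 5569.6 in the stl888 libraries. The stl888 mean was 0.534 of that in WT, with a log2 change of -0.92 (SE 0.19, adjusted p = 0.0125). Library 3 of stl888 was the nearest to WT, and without it the log2 change was -1.10 (adjusted p = 0.00108). The call was lost without WT library 2 (0.0687), WT library 3 (0.0615) or stl888 library 1 (0.0747), and held without WT library 2 and stl888 library 3 together (0.0149). Cone marker genes fell in the same libraries, 9 of 13 tested against 3.90% of all genes tested. The part of cone RNA in the fall of sept4a was not tested.

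**Figure D2:**
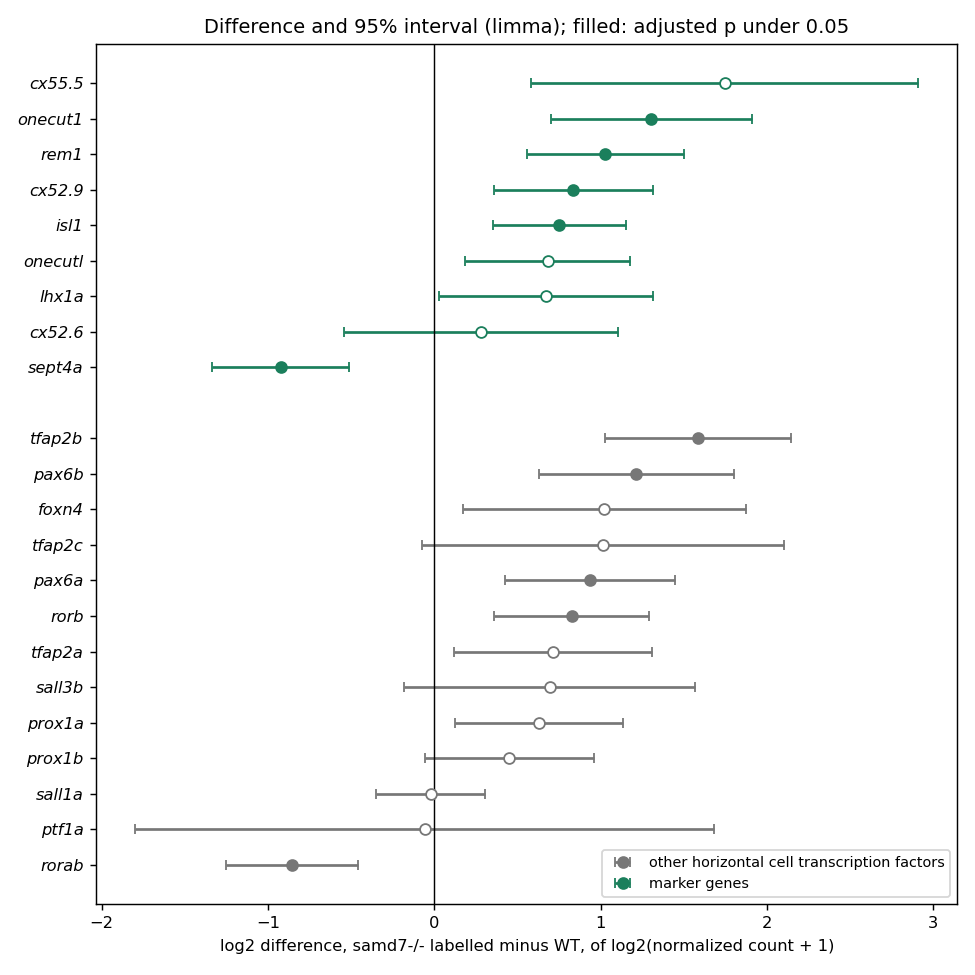
Log2 difference, stl888 minus WT, of log2(normalized count + 1) for the 9 markers (green) and 13 other transcription factors of horizontal cells (grey), with 95% intervals from limma; filled points passed an adjusted p of 0.05. Most points lie to the right of 0, and sept4a and rorab are the filled points to the left. The factor lhx1b, whose interval runs from -3.68 to 6.72, is not drawn.

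How the result was tested mattered for each of the 5 calls. With edgeR on the recovered reads the same 5 genes passed, and 4.36% of all genes, with adjusted p of 0.0314 for onecut1, 0.0306 for rem1, 0.0361 for isl1, 0.0492 for cx52.9 and 0.0249 for sept4a. With limma without its mean-variance trend none passed, with adjusted p from 0.240 to 0.308 for the 5. In that setting 27 of all 9886 genes tested passed, 10 higher and 17 lower. DESeq2 called 6 of the 9, cx55.5 being added, and 8.80% of all genes. In the authors' deposited table the adjusted p was 0.0241 for cx55.5, 0.0588 for onecutl, 0.266 for lhx1a and 0.835 for cx52.6, and from 0.000254 to 0.00784 for the 5 genes called here. Over the 16 alternatives tried, the log2 differences of all 9 markers kept their sign. Leaving out the filter or the trend, or adding the replicate number as a block, leaves these differences unchanged, so those settings could not turn a sign.

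**Figure D3:**
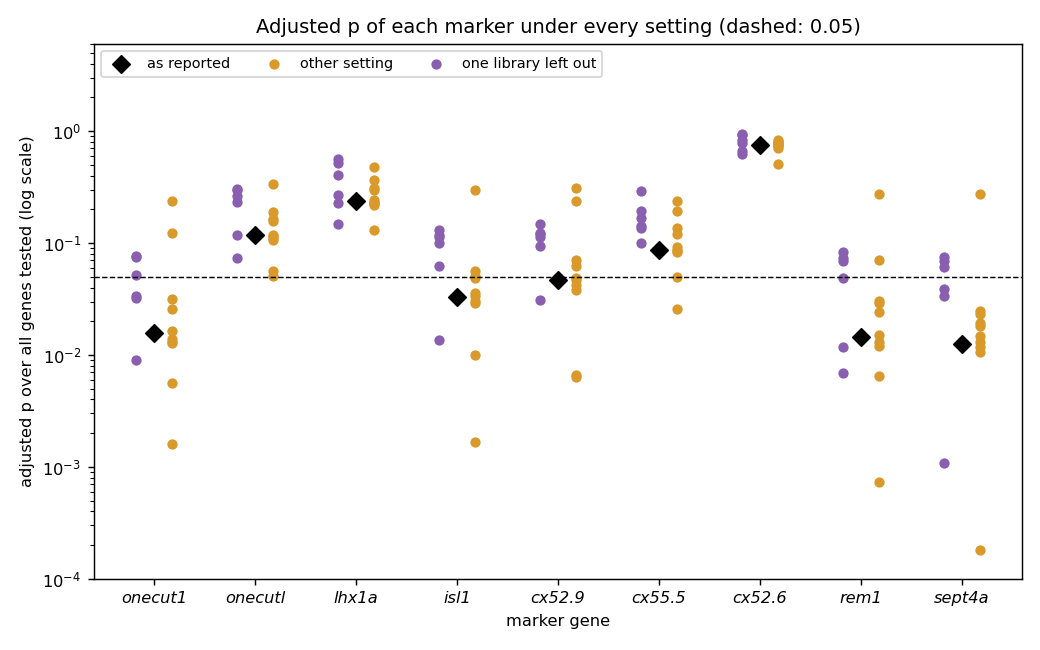
Adjusted p over all genes tested (vertical axis, log scale) for each of the 9 markers as reported (black), with 1 library left out (purple) and under every other setting (orange); the dashed line is 0.05. The 5 called genes cross the line in some settings, and onecutl, lhx1a and cx52.6 lie above it in all.

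The scale set for the libraries bears on these values. With library totals in place of the authors' size factors, the median of all genes moved from 0.05 to 0.28 on the log2 scale, and the share of called genes that were higher moved from 24.5% to 62.2%. Under that scale 5 of the 9 markers were called higher, cx55.5 being added, and 4.19% of all genes tested (6.74% in either direction), while sept4a was still called lower (log2 change -0.69, adjusted p = 0.0234). The median of the 9 markers was 0.98 there, 0.71 above that of all genes tested, and 0.71 above it under the authors' scale. A change of scale multiplies all genes of a library by the same factor, so this gap could hardly move and is no check.

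Libraries of a genotype did not share 1 order across the markers. Among the WT libraries, library 1 was the highest for 5 markers, library 3 for 4 and library 2 for 0. Among the stl888 libraries, library 2 was the highest for 4, library 1 for 3 and library 3 for 2. WT library 1 had the highest onecut1, isl1 and connexin values of its group, but the lowest lhx1a, rem1 and sept4a. Library 3 of stl888 had the highest cx52.9 and sept4a of its group and the lowest onecutl, isl1, rem1 and cx52.6. These ranks rest on 3 libraries per genotype and some on small steps, such as 1885 against 1905 for rem1 in WT libraries 1 and 2. Whether the markers vary together within a genotype was not tested.

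**Figure D4:**
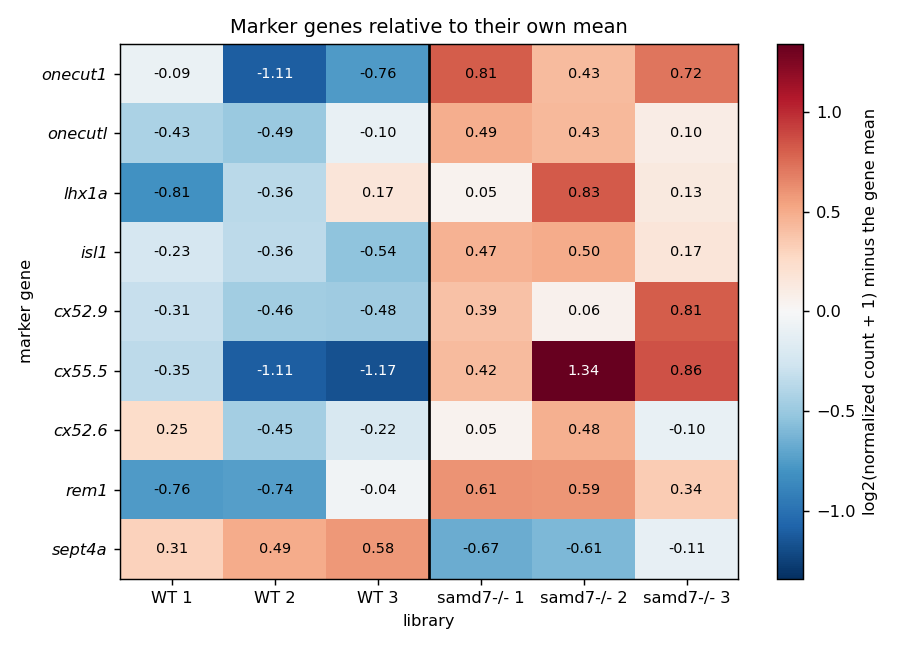
Log2(normalized count + 1) of each marker (rows) in each library (columns) less the mean of that gene over the 6 libraries, with red above and blue below the mean. The right-hand columns are above the mean for most markers, cx55.5 has the widest range, starting at -1.17, and sept4a is reversed.

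Summed over the 9 markers, the level was 17894 ± 1315 normalized counts in WT and 21877 ± 272 in the stl888 libraries. The falling gene sept4a weighed heavily in this sum, with a mean of 8283 in WT and 4426 in the stl888 libraries. Without isl1, which other retinal neurons share, the ratio of the means was 1.14 and the groups overlapped, WT library 3 (17004) lying above stl888 libraries 1 and 2 (16747 and 16931). For the 8 markers other than sept4a, a set trimmed after the values were seen, it came to 9672, 8739.5 and 10423 in WT and 17835, 17941 and 16576 in the stl888 libraries, 1.82-fold that of WT. Leaving out isl1 from that trimmed set as well gave a ratio of 1.87.

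By the root mean square difference of log2 values over the 6 libraries, each centred on its own mean, onecutl (0.158) and isl1 (0.159) lay nearest to the mean profile of the markers, and sept4a (0.848) and cx55.5 (0.610) farthest. That mean profile was taken over all the markers, sept4a among them, so each was compared with a profile that includes it. Of 7322 other genes whose mean reached 100 normalized counts, those nearest to that mean profile included cpt2 (0.0464), a mitochondrial carnitine palmitoyltransferase, puf60a (0.0546), a splicing factor, sh3glb2a (0.0818) and mki67 (0.0827), a protein of dividing cells. Of these 4, mki67 was called higher (log2 change 0.77, adjusted p = 0.0222), which the choice of a profile that separates the genotypes favours. The call of mki67 was lost without WT libraries 2 or 3 (adjusted p = 0.112 and 0.0754) or stl888 libraries 1 or 2 (0.0773 and 0.0563).

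Other transcription factors of horizontal cells were read from a list of 18. Of 14 tested 4 rose, 1 fell and 9 did not pass, and the median log2 difference was 0.77, against 0.05 for all genes tested. Of all genes tested 1.26% were called higher and 3.90% lower. The AP-2 factor tfap2b, expressed in horizontal and amacrine cells, had 695, 518 and 493 normalized counts in WT and 2040.2, 1677 and 1411 in the stl888 libraries. This was the largest log2 change of the called ones, 1.59 (SE 0.26, adjusted p = 0.00262), and it held with each library left out in turn. The paired-box genes pax6b (log2 change 1.22, adjusted p = 0.0194) and pax6a (0.94, adjusted p = 0.0363), which retinal progenitors and several inner neurons express, rose too. So did the nuclear receptor gene rorb (0.83, adjusted p = 0.0431), which photoreceptors share, while its relative rorab fell (-0.86, adjusted p = 0.0156).

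Of the factors that did not pass, prox1a, needed for horizontal cells in the mouse under its ortholog Prox1, had a log2 difference of 0.63 (95% interval 0.12 to 1.14, adjusted p = 0.156), and passed without stl888 library 3 (0.0465). The progenitor factor foxn4 had one of 1.02 with no overlap between the genotypes (adjusted p = 0.169). The gene ptf1a, which in zebrafish and mouse directs progenitors to horizontal and amacrine fates, had 60.1, 253 and 90.5 in WT and 210.5, 36.6 and 158 in the stl888 libraries. The spread of ptf1a within each genotype exceeded the step between them (log2 difference -0.06, or 0.17 with library totals, adjusted p = 0.980). The factor sall1a, with the highest mean of the list over the 6 libraries, had a log2 difference of -0.02 (95% interval -0.35 to 0.31), or 0.21 with library totals.

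Calls among these factors rested in part on single libraries. For pax6b the adjusted p was 0.0786 without WT library 2, 0.0779 without stl888 library 1 and 0.0669 without stl888 library 2. For pax6a it reached 0.142 without WT library 1 and 0.151 without stl888 library 2, and was also above 0.05 without WT library 2 (0.0730), WT library 3 (0.0662) or stl888 library 1 (0.0656). For rorab it was 0.107 without WT library 2, 0.0720 without stl888 library 1 and 0.0721 with library totals. For rorb edgeR gave 0.0702, and the adjusted p was 0.132 and 0.202 without WT libraries 1 and 2, and 0.116 and 0.134 without stl888 libraries 1 and 2.

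Genes for the transmitters, receptors and channels of horizontal cells formed a list of 25, of which 21 were in the table and 17 tested. With limma 0 were called, 5 had an unadjusted p under 0.05, edgeR called 0 and DESeq2 1, and the median log2 difference was 0.61. Among all 9886 genes tested 1893 had an unadjusted p under 0.05 with limma. Of all genes edgeR called 4.36% and DESeq2 8.80%, and the median was 0.05. The GABA-synthesizing enzyme gene gad1b had 8784, 5576 and 5921 in WT and 9391, 7437 and 7422 in the stl888 libraries (log2 difference 0.28, adjusted p = 0.509). The vesicular GABA transporter gene slc32a1 had 7169, 4279 and 4537 in WT and 3539, 3366 and 4525 in the stl888 libraries (log2 difference -0.46, 95% interval -0.93 to 0.02, adjusted p = 0.281). The genotypes overlapped for both. The second GABA-synthesizing enzyme gene of the list, gad2, had 265, 471 and 438 in WT and 1083, 749 and 541 in the stl888 libraries, with no overlap (log2 difference 1.001, 95% interval 0.22 to 1.78, adjusted p = 0.142). Of the 17 tested, 6 were higher in the stl888 libraries without overlap and 0 lower, against 12.1% and 12.4% among all genes tested. The AMPA-type glutamate receptor gene gria3a had a log2 difference of 0.68 with no overlap (95% interval 0.27 to 1.09, adjusted p = 0.0566), and passed without stl888 library 3 (0.0279), with TMM factors (0.0488) and with library totals (0.0182).

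The families of the markers were read by symbol, beside 1.26% called higher and 3.90% lower among all genes tested. Of 29 connexin genes in the table, 8 passed the filter, cx52.9 rose and 7 did not pass, and 10 were at 0 in all 6 libraries. The close relative cx52.7 had 909, 639 and 604 in WT and 1343, 1060.0 and 586 in the stl888 libraries (log2 difference 0.42, adjusted p = 0.551). The neuronal connexin gene cx35b had a log2 difference of 0.02 (95% interval -0.41 to 0.44). The remaining connexins tested were cx43, known from glia (log2 difference 0.95, adjusted p = 0.290), cx43.4 (0.23, adjusted p = 0.814), which turned to -0.03 without WT library 3 or without stl888 library 2, and cx32.2 (-2.11, adjusted p = 0.597), which had at most 28.8 normalized counts in any library. Of 10 LIM-homeobox genes tested isl1 and lhx4 rose and 8 did not pass. The call of lhx4, a factor known from bipolar cells and photoreceptors (log2 change 0.78, adjusted p = 0.0476), was lost with each library left out in turn, with an adjusted p up to 0.151 without stl888 library 2. Of those that did not pass, isl2a, known from ganglion cells and photoreceptors, lay higher in all 3 stl888 libraries (log2 difference 0.43, 95% interval -0.10 to 0.95, adjusted p = 0.380), and lmx1a had a difference of 1.04 with overlap (adjusted p = 0.483). Between stl888 libraries isl2b ranged from 4.36 to 164 normalized counts, lhx2b from 4.95 to 309 and lhx9 from 0.826 to 359, and their log2 differences of 0.01, -0.51 and -0.62 turned in sign with single libraries left out. For lhx1b and lhx8a (log2 differences 1.52 and -1.63, adjusted p = 0.794 and 0.769) at least 1 library was at 0 reads.

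In the RGK family rem1 was the one of 4 tested that passed. Its relative rem2 went the other way without overlap, with 984, 1534 and 1241 in WT and 941, 927 and 680.1 in the stl888 libraries (log2 difference -0.55, 95% interval -1.12 to 0.01, adjusted p = 0.274). The third, gem, had 1591, 763 and 953 in WT and 1044, 622 and 1564 in the stl888 libraries, and its log2 difference of -0.06 (95% interval -0.82 to 0.69) turned to 0.17 with library totals. The last, rrad, had 0 to 118 normalized counts (log2 difference -1.76, adjusted p = 0.660). Of 7 septins tested sept4a alone passed. The ubiquitous septin gene sept7b had a log2 difference of 0.14 (adjusted p = 0.748) and sept7a one of 0.63 (adjusted p = 0.181). The others were sept8a (log2 difference 0.23, adjusted p = 0.553), sept8b (-0.56, adjusted p = 0.579), sept5b (0.42, adjusted p = 0.760), and sept9b with at most 30.2 normalized counts (-0.63, adjusted p = 0.921). The deposited table also holds 11 date-like names, which were not matched. Whether septin genes are among them was not resolved.

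A list of factors of photoreceptors and retinal progenitors, otx2 among them, was read beside onecut1. Of 8 tested, thrb included, limma called 0, 3 had an unadjusted p under 0.05, edgeR called 0 and DESeq2 1. That unadjusted level was met by 1893 of all 9886 genes tested, and DESeq2 called 8.80% of all. The gene otx2 had 1173, 679 and 1174 normalized counts in WT and 1475, 1691 and 1571 in the stl888 libraries, with no overlap (log2 difference 0.69, 95% interval 0.13 to 1.24, adjusted p = 0.156). For thrb the WT libraries had 16439, 13546 and 12472 and the stl888 libraries 11245, 10744 and 10042 (log2 difference -0.40, adjusted p = 0.200). The photoreceptor factor genes neurod1 (log2 difference 0.23, adjusted p = 0.764, and -0.17 without WT library 1) and crx (-0.29, adjusted p = 0.437) had the highest means of this list over the 6 libraries, and the genotypes overlapped for both. The retinoid X receptor gene rxrga had 3371, 2686 and 3951 in WT and 6402, 4618 and 5460 in the stl888 libraries, with no overlap (log2 difference 0.72, 95% interval 0.29 to 1.16, adjusted p = 0.0555). It passed with TMM factors (0.0451), library totals (0.0109) and DESeq2 (0.00958) and without stl888 library 2 (0.0486). Of the 8 tested, rxrga and otx2 lay higher in all 3 stl888 libraries than in the WT ones, and thrb lower. Over all genes tested 12.1% were higher and 12.4% lower without overlap.

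Some markers of other cells were called in the same comparison, and their part in the results above was not tested. Calls over all genes tested were 1.26% higher and 3.90% lower. Of 12 amacrine genes tested 4 rose and 0 fell (median 0.83): tfap2b, pax6a and pax6b, which the horizontal cell list above shares, and barhl2 (log2 change 1.002, adjusted p = 0.0102), which held with each library left out in turn. The horizontal cell lists also hold the amacrine genes tfap2a, ptf1a, gad1b, gad2 and slc32a1, so the amacrine median and sum are not separate from theirs. In WT gad1b and slc32a1 had means of 6760 and 5328, of 20045 for the amacrine sum. The amacrine list summed to between 17295 and 23624 in WT and between 25387 and 29593 in the stl888 libraries, with the dopaminergic marker th at 0 in all 6 libraries, the cholinergic chata at 0 in all 3 stl888 libraries and the glycinergic slc6a5 at 0 in 5 of 6. Of 11 bipolar genes limma called 0, with 3 at an unadjusted p under 0.05, against 1893 of all 9886 genes tested. With edgeR 0 were called and with DESeq2 2, against 8.80% of all genes with DESeq2. The median of these bipolar genes was 1.11, the value of cabp5b. That gene was at 0 in WT library 3 and stl888 library 1, and its sign turned with 1 library left out. Of the 11 differences 10 were positive. Without overlap 3 genes were higher and 1 lower, cabp2a (log2 difference -0.94, adjusted p = 0.394), against 12.1% and 12.4% among all genes tested. The bipolar list summed to between 2182 and 3813 in WT and between 4108 and 5493 in the stl888 libraries. The highest mean over the 6 libraries was that of the G protein gamma subunit gene gng13b (log2 difference 0.77, adjusted p = 0.0721, and 0.0371 without WT library 1). It held 1905 of the WT mean sum of 2888. Next came the G protein alpha subunit gene gnao1b (1.43, adjusted p = 0.101). Of 13 ganglion cell genes, with a median log2 difference of 0.43, robo2 rose (log2 change 0.87, adjusted p = 0.0287). That call was lost with any 1 library left out except stl888 library 3, at up to 0.132 without stl888 library 1, while gap43, nefma and nefmb were at 0 in all 6 libraries. Their sum was between 3276 and 3577 in WT and between 4886 and 5153 in the stl888 libraries.

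Of 10 Müller glia genes glula rose (log2 change 1.06, adjusted p = 0.0102, lost without WT library 1 at 0.0632). The median log2 difference of the 10 was 0.51, and 7 of the differences were positive. For apoeb, with means of 11765 in WT and 11890 in the stl888 libraries, the log2 difference was 0.04. Its sign turned with single libraries left out. The progenitor and glial gene fabp7a, with the highest mean of the list over the 6 libraries, had a log2 difference of 0.96 (adjusted p = 0.0662, and 0.0160 without stl888 library 1), and the list summed to between 55304 and 76445 in WT and between 86294 and 160701 in the stl888 libraries. Of 17 genes of dividing cells mki67, top2a and aurkb rose and 0 fell (median 0.74), against 1.26% called higher among all genes tested. Without overlap 12 were higher, against 12.1% of all genes. The count called higher was 10 with library totals (4.19% of all genes) and 8 with DESeq2 (325 of all 9886 genes). With 1 library left out it was between 0 and 5, against between 40 and 125 genes called higher in all. The 17 genes summed to between 51476 and 58495 in WT and between 72234 and 83491 in the stl888 libraries. Of the WT mean sum of 55468, hmgb2a held 24550 and hmgb2b 13930. The call of top2a (log2 change 0.99) was lost without WT library 1 (adjusted p = 0.0707), WT library 2 (0.110), stl888 library 1 (0.0747) or stl888 library 2 (0.0680). That of aurkb (1.33) was lost without WT libraries 2 or 3 (0.0791 and 0.0549) or stl888 libraries 1 or 3 (0.0810 and 0.0515). The chromatin genes hmgb2a (log2 difference 0.29, adjusted p = 0.329) and hmgb2b (0.54, adjusted p = 0.0666) did not pass. The cone list went the other way, with 9 of 13 tested lower and 1 higher (median -1.06), against 3.90% and 1.26% among all genes tested. The cone arrestin gene arr3a fell by 6.23 on the log2 scale (adjusted p = 7.3e-09), guca1d by 1.69 (0.000887), pde6h by 1.96 (0.00146, lost without stl888 library 3 at 0.114), grk7a by 1.11 (0.00164), and the red opsin gene opn1lw2 by 1.29 (0.00510, lost without stl888 library 2 at 0.0546). The gene called higher was the red opsin gene opn1lw1 (3.29, adjusted p = 0.0459), whose call was lost without WT library 2 (0.194), WT library 3 (0.0975) or stl888 library 3 (0.183). The cone genes had a sum between 3750920.3 and 3926592 in WT and between 1076695 and 1925672 in the stl888 libraries. For none of these lists was the difference from the horizontal cell markers tested.

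**Figure D5:**
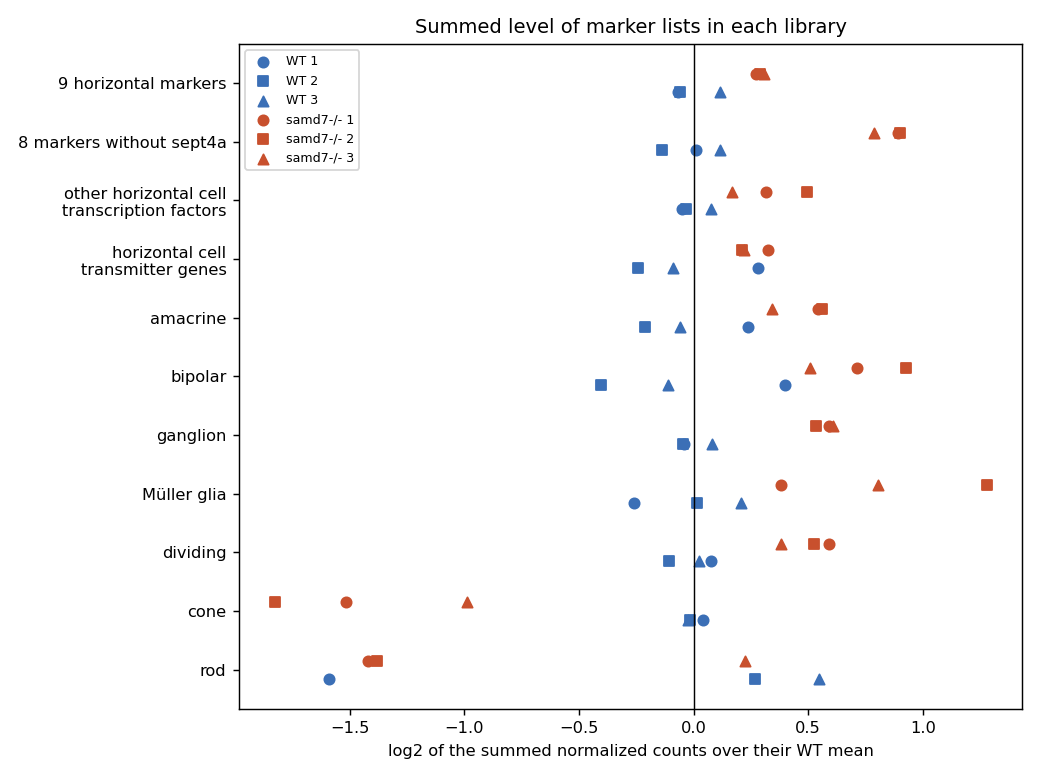
Log2 of the summed normalized counts of each marker list over the WT mean of that sum (horizontal axis), for WT (blue) and stl888 (red) libraries 1 to 3. The amacrine list shares genes with the horizontal cell transcription factor and transmitter lists. The sum of the 9 horizontal cell markers lies between 0.27 and 0.31 in the stl888 libraries and that of the 8 other than sept4a, a set trimmed after the values were seen, between 0.79 and 0.90, the amacrine, bipolar, ganglion, Müller glia and dividing lists are also to the right of their WT points, and the cone list is to the left.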

How the data were processed

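The authors' deposited table gives 14781 genes in 6 libraries, their means, and a comparison of the genotypes as a log2 fold change with an adjusted p-value. The submitters' processing notes name, for genome build danRer10, the tools DESeq2 1.34.0 under R 4.1.3, HTSeq 0.9.1, STAR 2.7.2b and Trim Galore 0.6.1. Neither labels nor notes give the annotation or the strand setting. The deposited signal of a library holds reads per gene over its size factor: 100% of values were whole multiples of 1 read to within 0.01 read, so whole reads were recovered. Per the labels' protocols, 300 pg of RNA were used, complementary DNA was amplified for 14 cycles and the library for 15. No molecular identifiers are described there, so reads are not known to be independent molecules.

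Genes that reached 10 normalized counts in 3 or more of the 6 libraries were fitted with limma 3.58.1 (R 4.3.3) on log2(value + 1), with genotype as the only term, a mean-variance trend and the robust option, and Benjamini-Hochberg adjustment over all genes tested. The design named limma for normalized values. The added 1 understates the change of low genes. As alternatives, edgeR 4.0.16 (quasi-likelihood, TMM) and DESeq2 1.42.0 were run on the recovered reads. Further ones were the pseudocount (0.5 and 5), no filter, scaling by totals or TMM factors, no trend, the replicate number as a block, and each library left out. WT library 2 and stl888 library 3 were also left out together, an alternative chosen after seeing the data. The fits were checked on simulated data, where DESeq2 made more false calls than limma or edgeR. The simulated counts were drawn with dispersions that edgeR estimated from these data, a setting not neutral between the tools. The members and lists were chosen with earlier results of these data known, so no p-value is given for a list. All members were described. Of the 5 genes nearest to the markers' mean profile, 1 is not reported here. Of other lists, called genes (up to 4 by adjusted p), the 2 of highest mean level over the 6 libraries and the tested members of the marker families were named by rule. The genes named beside these (prox1a, foxn4, ptf1a, gria3a, gad2, otx2, rxrga, opn1lw1, cabp5b, cabp2a and those at 0) were chosen after their values were seen. List symbols were matched by symbol or, for 5, by an older symbol. RefSeq names come from a table of assembly GRCz12tu, so no coordinates are given.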

Additional observations from a re-analysis of the deposited data

How the results depend on the processing

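Over the 16 alternatives no sign changed among the 9 marker genes, although the settings for the filter, the trend and the replicate block could not change a sign. The count of markers called higher, 4 as reported, was 0 without the mean-variance trend, where 10 genes in all were higher and 17 lower against 125 and 386, and 0 without WT library 2 and stl888 library 3 together (33 genes higher in all), an alternative chosen after seeing the data. With 1 library left out, between 0 and 3 markers were called higher and between 0 and 1 lower, and between 40 and 125 genes were higher and between 185 and 448 lower in all. The markers called lower, 1 as reported, were 0 without the trend. Library totals gave 415 genes higher and 252 lower, and DESeq2 325 higher. The log2 ratio of the summed level of the 9 markers, 0.29, was 0.53 with library totals and 0.19 without isl1 in the sum. Same-numbered libraries of the genotypes did not deviate together over all genes tested (correlations 0.05, -0.03 and 0.01). A pairing with a weak effect would not show in these values, and the labels state none. With the replicate block 2 markers were called higher (96 genes higher in all), with cx52.9 at an adjusted p of 0.0622 and isl1 at 0.0511. Of the other values, those of list counts and single genes, 1542 kept their side, 101 list counts moved by over 1.5 times, 122 gene calls were lost and 29 gained, and 45 changed sign, all of uncalled genes outside the 9 markers. On the log2 scale ptf1a went to 0.17 with library totals, 0.0059 with edgeR, 0.0044 with DESeq2 and 0.25 without WT library 2 and stl888 library 3, sall1a to 0.21, gem to 0.17 and mpeg1.1 to 0.049 with library totals, cx35b to -0.196 and sept9b to 1.54 without those 2 libraries, and isl2b to -0.0105 with a pseudocount of 0.5. With edgeR and DESeq2 lhx2b went to 0.46 and 0.456, lhx9 to 1.004 and 1.005, and pmela to -0.285 and -0.292, and pmela was -1.11 without the 2 libraries. With 1 library left out the log2 difference ranged from -0.54 to 0.71 for ptf1a, from -0.067 to 0.034 for sall1a from -0.16 to 0.13 for cx35b, from -0.38 to 0.28 for gem, from -0.027 to 0.63 for cx43.4, from -1.03 to 1.44 for isl2b, from -1.95 to 0.898 for lhx2b, from -2.02 to 1.79 for lhx9, from -0.016 to 0.91 for sept5b, from -2.13 to 0.56 for sept9b, from -0.17 to 0.47 for neurod1, from -1.17 to 2.88 for pmela, from -0.70 to 0.42 for mpeg1.1, from -1.06 to 0.65 for coro1a, from -2.02 to 0.25 for crybb1 and from -0.17 to 0.81 for mipa. The causes were not tested. With 3 libraries per genotype, the intervals of lhx1a and cx52.6 do not settle whether they changed.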

Other observations

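Tissues near the photoreceptors left few reads. The lens list summed to between 347 and 1655 normalized counts in WT and between 261 and 1423 in the stl888 libraries, the leukocyte list to between 299.5 and 672 and between 257 and 836, and the pigment epithelium list to between 79.96 and 497 and between 186 and 464. With limma 0 of 6, 0 of 3 and 0 of 5 tested genes of these lists were called, 0 had an unadjusted p under 0.05, and edgeR and DESeq2 called 0. The genes of highest mean over the 6 libraries had log2 differences of -1.06 for crybb1 and 0.48 for mipa of the lens, -0.18 for mpeg1.1 and -0.38 for coro1a of leukocytes, and 1.47 for pmela and 1.63 for tyrp1b of the pigment epithelium, and of these tyrp1b alone kept its sign with each library left out in turn. Of 12 rod genes tested limma called 0, 4 had an unadjusted p under 0.05, edgeR called 0 and DESeq2 2 (median -0.90). Their sum was between 21632 and 95251 in WT and between 24349 and 76060.1 in the stl888 libraries. Among all 9886 genes tested 1893 had an unadjusted p under 0.05, and DESeq2 called 8.80% of all. The rod genes of highest mean over the 6 libraries were the rod opsin gene rho (log2 difference -1.13, 95% interval -4.49 to 2.24) and gnb1a (0.56, adjusted p = 0.119). In WT libraries 1 to 3 rho had 9063, 57776 and 70290 normalized counts. In stl888 libraries 1 to 3 it had 8408, 7825 and 53889, so its level differed widely within each genotype. The source of these reads was not tested.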
